A study of Sus scrofa with 6 samples.

Results

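The globins, haptoglobin and transferrin probe sets are those whose single gene symbol in the platform annotation is HBE1, HBB, HP or TF. They number 5 of the 23999 probe sets on the porcine Affymetrix array, for 4 symbols among 6567 named genes. They were chosen by symbol, with earlier results of these arrays known, so their signals are described here and not tested. The symbol TF covers 2 gene records, and each has a probe set of its own. The RefSeq record behind the brighter TF probe set, 396845, carries the synonym PICA, which in the pig names an inhibitor of carbonic anhydrase of the transferrin family. The dimmer TF probe set belongs to record 396996. The records lie next to each other in the Sscrofa11.1 annotation, with 0 other records between them. The label transferrin therefore cannot be taken at face value for the brighter probe set, which is called TF/PICA below, while the dimmer is called TF/396996. Whether the probes tell these relatives apart was not tested.

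The arrays carried RNA of non-pregnant (NP), early pregnant (EP) and late pregnant (LP) pigs, from ovary and from tissue labelled myometrium, the smooth muscle wall of the uterus. There were 6 arrays, 1 per tissue and stage, from a design of 9 pigs with 3 per stage. The sources used here do not say if the pigs of a stage were pooled for an array, nor do they give the day of pregnancy or the animals' age. With 1 array per group no stage comparison has a replicate check, and none has a p-value. In such bulk tissue, fewer cells of a type and less RNA per cell cannot be told apart.

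Haemoglobin joins alpha-like and beta-like globin chains around haem, the iron-holding ring that binds oxygen. Primitive red cells, which form first in the yolk sac, make the embryonic beta-like chain encoded by HBE1, and later red cells make the adult chain encoded by HBB. Haptoglobin, HP, is a plasma protein made chiefly in liver that captures haemoglobin set free from red cells and hands it to the receptor CD163 on macrophages. Transferrin carries ferric iron in plasma to cells that bear the receptor TFRC. In the pregnant pig, glands of the uterus secrete uteroferrin, the product of ACP5, which brings iron to the conceptus.

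The tissue labels were set against marker genes. Each ovary array had 5 of 12 uterine epithelium markers above the floor, whereas the arrays labelled myometrium had 11 (NP), 12 (EP) and 12 (LP). The floor is a signal of 81.7, the 40th percentile of all signals, and signals under it are read as not measurable. Smooth muscle markers had a summed signal of 38929 to 62379 on the ovary arrays and 19287 to 32178 on the arrays labelled myometrium, with 9 or 10 of the 10 markers above the floor on every array, so these markers did not set the arrays labelled myometrium above ovary. Of the 13 trophoblast and placenta markers on the array, 6 to 8 lay above the floor on the ovary arrays, with summed signals of 9028 to 11550.1. On the arrays labelled myometrium 5 (NP), 13 (EP) and 9 (LP) did, with sums of 3044 (NP), 65808 (EP) and 90454 (LP). PLET1, a trophoblast gene, read 32821 and 31638 on the EP and LP arrays labelled myometrium, against 49.1 on the NP array. On the EP ovary array PLET1 read 1661 and PAG6, a pregnancy-associated glycoprotein, read 239.8, whereas both lay under the floor on the LP ovary array. Between 57.4% and 61.6% of probe sets were above the floor on an array, and the ratio of 3' to 5' GAPDH signal, a measure of RNA integrity, was 1.51 to 2.33. The same ratio for actin was higher on every array. It was 3.38 (NP), 2.56 (EP) and 3.22 (LP) in ovary and 3.49 (NP), 2.64 (EP) and 2.76 (LP) in tissue labelled myometrium.

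The embryonic globin gene HBE1 was present on 1 array of 6, that of EP tissue labelled myometrium. Its probe set read 9.8 (NP), 37.6 (EP) and 7.0 (LP) on the ovary arrays. On the arrays labelled myometrium it read 44.3 (NP), 20201 (EP) and 64.1 (LP). The 5 other arrays were all under the floor, and their order has no meaning. The EP array labelled myometrium was also the one with all 13 trophoblast markers and all 8 erythroid genes above the floor. On the LP array labelled myometrium, where HBE1 was not measurable, the trophoblast sum was higher still, and the part of placental cells in the HBE1 signal was not tested.

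Against that floor, HBE1 was at least 247-fold higher on the EP than on the NP array labelled myometrium, a log2 ratio of 7.95 or more. The LP array was at least 247-fold lower than the EP array. At the EP stage, ovary was at least 247-fold below tissue labelled myometrium. These bounds follow the floor, and ranged from 82.1-fold to 456-fold for EP over NP under other floors and scalings.

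**Figure D1:**
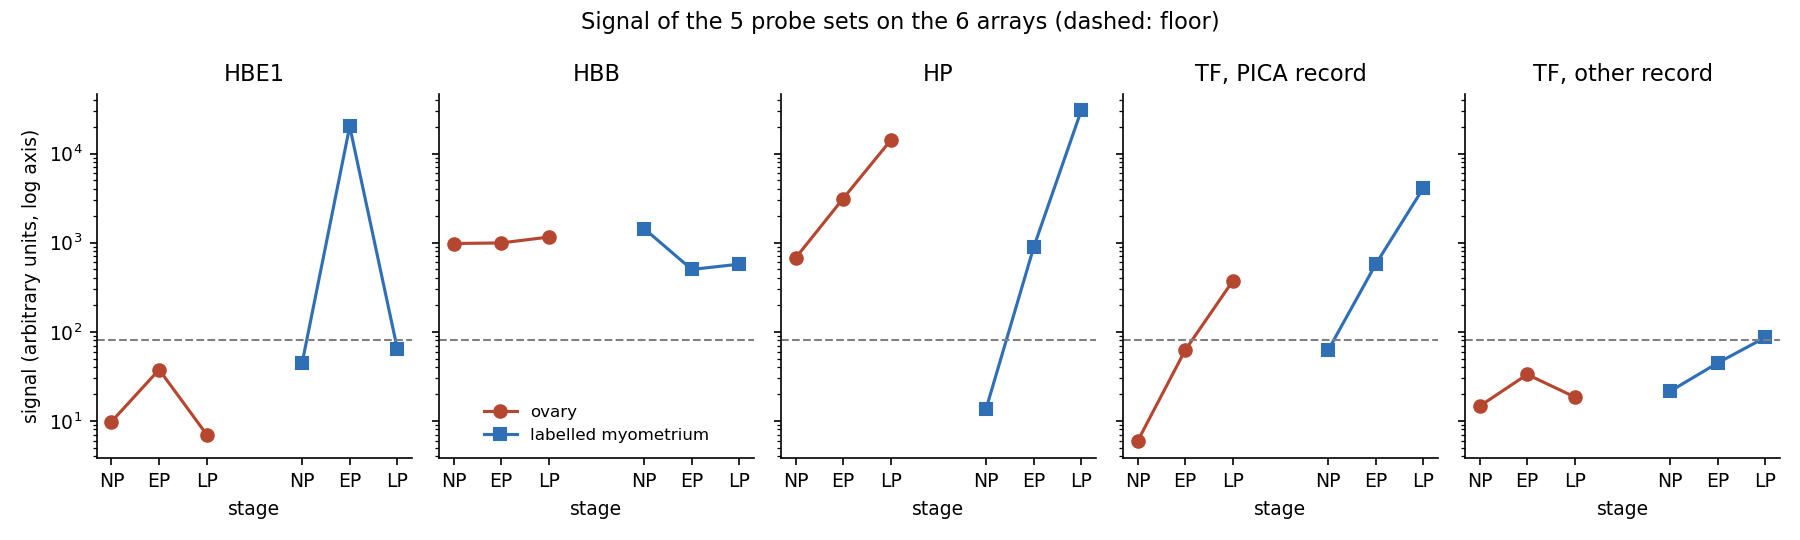
Signal of each probe set on each array (log axis, arbitrary units), by stage, with ovary as circles and tissue labelled myometrium as squares; the dashed line is the floor of 81.7 and each point is 1 array, joined within a tissue to guide the eye. HBE1 reaches 20201 on the EP array labelled myometrium alone, while HP and TF/PICA are highest in LP tissue of either kind.

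A presence on 1 array alone was uncommon. Of 6567 named genes, 62 lay above the floor on the NP array labelled myometrium alone, and 62 on the LP array alone. For the ovary arrays this count was 27 (NP), 21 (EP) and 10 (LP). Another 34 lay above the floor on the EP array labelled myometrium and on no other. Among them were HBE1 at 247 times the floor, IFNG at 21.0 times, APOA2 at 11.7 times and CYP19A1 at 7.29 times. IFNG encodes interferon gamma, which the pig trophoblast secretes around attachment, CYP19A1 encodes an aromatase, and APOA2 encodes a protein of plasma lipoproteins. RHCE, a red cell membrane antigen gene, was also among the 34, at 1.32 times.

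The genes most like HBE1 were ranked by Pearson's r of log2 signal over the 6 arrays, among 970 genes that varied at least 4-fold. IFNG, APOA2 and CYP19A1 had r of 1.0, which any gene above the floor on that array alone must have. ZFP42, a gene of pluripotent and placental cells, followed at 0.99, with 373 on the EP and 100.2 on the LP array labelled myometrium and values under the floor elsewhere. TMEM254 came next at 0.98, with 11181 on the EP array labelled myometrium and 2173 to 3167 on the other 5 arrays. The points are 6 arrays of different tissues and stages and give no p.

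**Figure D2:**
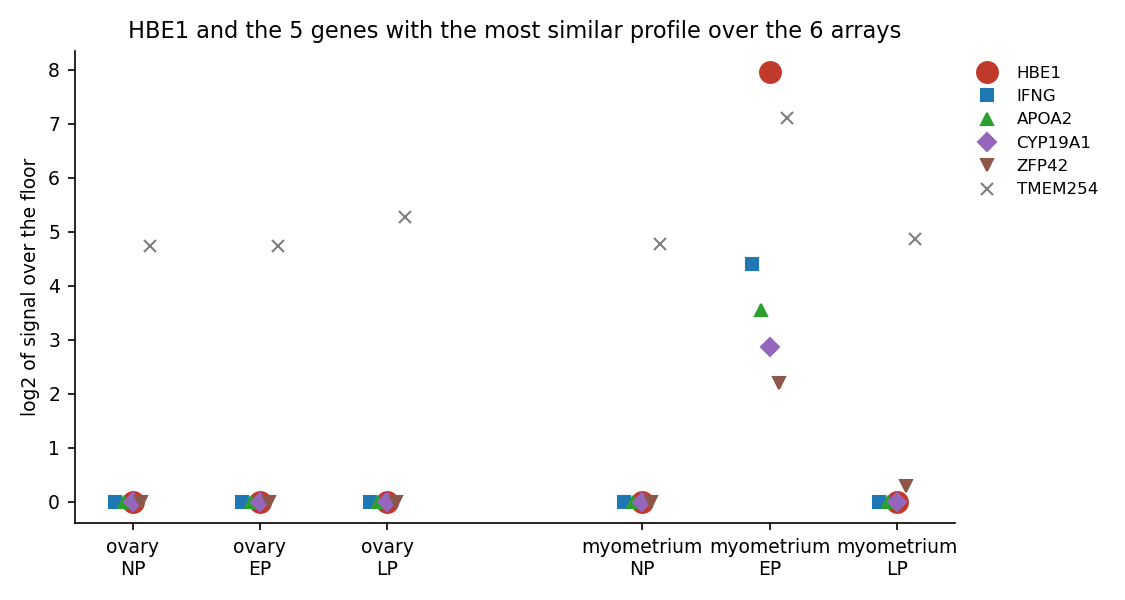
Log2 of signal over the floor for HBE1 and the 5 genes closest to it by Pearson's r, on each of the 6 arrays; signals under the floor are drawn at 0. IFNG, APOA2 and CYP19A1 share with HBE1 a value above 0 on the EP array labelled myometrium alone.

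The adult globin gene HBB did not follow HBE1. It read 979 (NP), 993 (EP) and 1155 (LP) on the ovary arrays, and 1440.1 (NP), 501 (EP) and 574 (LP) on the arrays labelled myometrium. HBB was above the floor on all 6 arrays, and the ovary arrays were nearly level.

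In tissue labelled myometrium, HBB was 2.88-fold lower in EP and 2.51-fold lower in LP than in NP, log2 ratios of -1.52 and -1.33. In ovary the same ratios were 0.02 and 0.24. Ovary was lower than tissue labelled myometrium in the NP pair, with a log2 ratio of -0.56, and higher in the EP and LP pairs, with 0.99 and 1.01. The EP value fell just short of 2-fold and the LP value just past it. HBB and HBE1 lie near each other in the annotation, with 2 records between them. On the array where HBE1 was present, HBB had its lowest signal. The LP array labelled myometrium, where HBE1 was not measurable, was only 1.15-fold higher for HBB.

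The annotation named 3 other globin genes of the 12 looked for, and none behaved like HBE1. HBM, the alpha-like mu globin, read 232.5 (NP), 100.4 (EP) and 47.9 (LP) in ovary, the LP value under the floor. On the arrays labelled myometrium it read 126 (NP), 177 (EP) and 197 (LP). Thus HBM was 2.32-fold lower in EP than in NP ovary, and at least 2.85-fold lower in LP than in NP ovary. Cytoglobin, CYGB, a globin of fibroblast-like cells, read 134 to 169 on the ovary arrays and lay under the floor on those labelled myometrium, and neuroglobin, NGB, lay under it on all 6. Alpha globin and the embryonic alpha-like HBZ had no probe set with their symbol.

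Several red cell genes were higher on the pregnant arrays labelled myometrium than on the NP array. In EP against NP, 4 of 8 measured erythroid genes were 2-fold or more higher and 0 lower, where 9.18% of all measured genes were higher and 10.3% lower. Their median log2 ratio was 0.95, beside -0.19 for all genes. In LP against NP, 5 of 5 were higher, where 11.3% of all measured genes were higher and 13.2% lower, with a median of 1.52 beside -0.16. Bounds entered these medians at their value. In EP against NP, AHSP, KLF1, EPOR and RHCE were above the floor in EP alone, so their ratios could only be positive. The same held for AHSP in LP against NP. Endothelial markers, 9 on the array, had sums of 3436 (NP), 5284 (EP) and 6454 (LP) on the same arrays with 7 (NP), 8 (EP) and 8 (LP) above the floor. Luteal and granulosa markers, 11 on the array, had sums of 1223 (NP), 12775 (EP) and 17742 (LP) with 5 (NP), 9 (EP) and 6 (LP) above it. The part of any of these cell types in the red cell values was not tested. AHSP, which chaperones free alpha globin, read 81.7 (NP), 219 (EP) and 638.5 (LP). ALAS2, the red cell form of the enzyme that starts haem synthesis, read 614 (NP), 768 (EP) and 1758 (LP). AHSP and ALAS2 were thus highest on the LP array, where HBE1 lay under the floor. BPGM, which makes the red cell regulator of oxygen affinity, was 3.93-fold higher in EP and 4.39-fold higher in LP than in NP. SLC25A37, which imports iron into mitochondria, was 2.65-fold higher in EP and 2.54-fold higher in LP than in NP. Its other probe set was 3.61-fold higher in EP and 1.35-fold higher in LP, which is short of 2-fold. KLF1, a transcription factor needed for adult globin expression, read 94.5 on the EP array labelled myometrium and lay under the floor on the 5 others. EPOR, the erythropoietin receptor gene, read 72.4 (NP), 115 (EP) and 41.9 (LP) on the arrays labelled myometrium.

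In ovary, the erythroid list did not show this. There 0 of 4 measured genes reached 2-fold in EP against NP. In LP against NP, ALAS2 alone did, 2.61-fold lower, with 296 (LP) against 773 (NP). Of the 31 genes listed as erythroid, 8 had a probe set.

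Most haem synthesis genes were also higher on the pregnant arrays labelled myometrium. Of 8 measured genes, 5 were 2-fold or more higher in EP than in NP and 0 lower (median log2 ratio 1.35), and 6 were higher in LP than in NP and 0 lower (median 1.43). All measured genes had 9.18% higher and 10.3% lower in EP, and 11.3% higher and 13.2% lower in LP, with medians of -0.19 and -0.16, and the list shares ALAS2 and SLC25A37 with the erythroid list. ALAS1, the form of the first enzyme found in most cells, read 911 (NP), 9026 (EP) and 4080 (LP). It was 9.91-fold higher in EP than in NP, and its other 2 probe sets read 5142 and 2632 (EP), against 234 and 207 (NP). ALAD, the enzyme of the next step, read 529.5 (NP), 1879 (EP) and 2934 (LP). UROD, a decarboxylase of the pathway, was higher mainly in EP tissue, with 679 (NP), 2421 (EP) and 1011 (LP). SLC25A38, a mitochondrial glycine carrier, was level at 574 (NP), 627 (EP) and 697 (LP). FECH, which inserts iron into the ring in the last step, read 1469 (NP), 2119 (EP) and 8586 (LP), and so was higher than NP chiefly in LP tissue. In ovary, 0 of 8 reached 2-fold in EP against NP, and ALAS2 alone, lower, did in LP against NP.

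**Figure D3:**
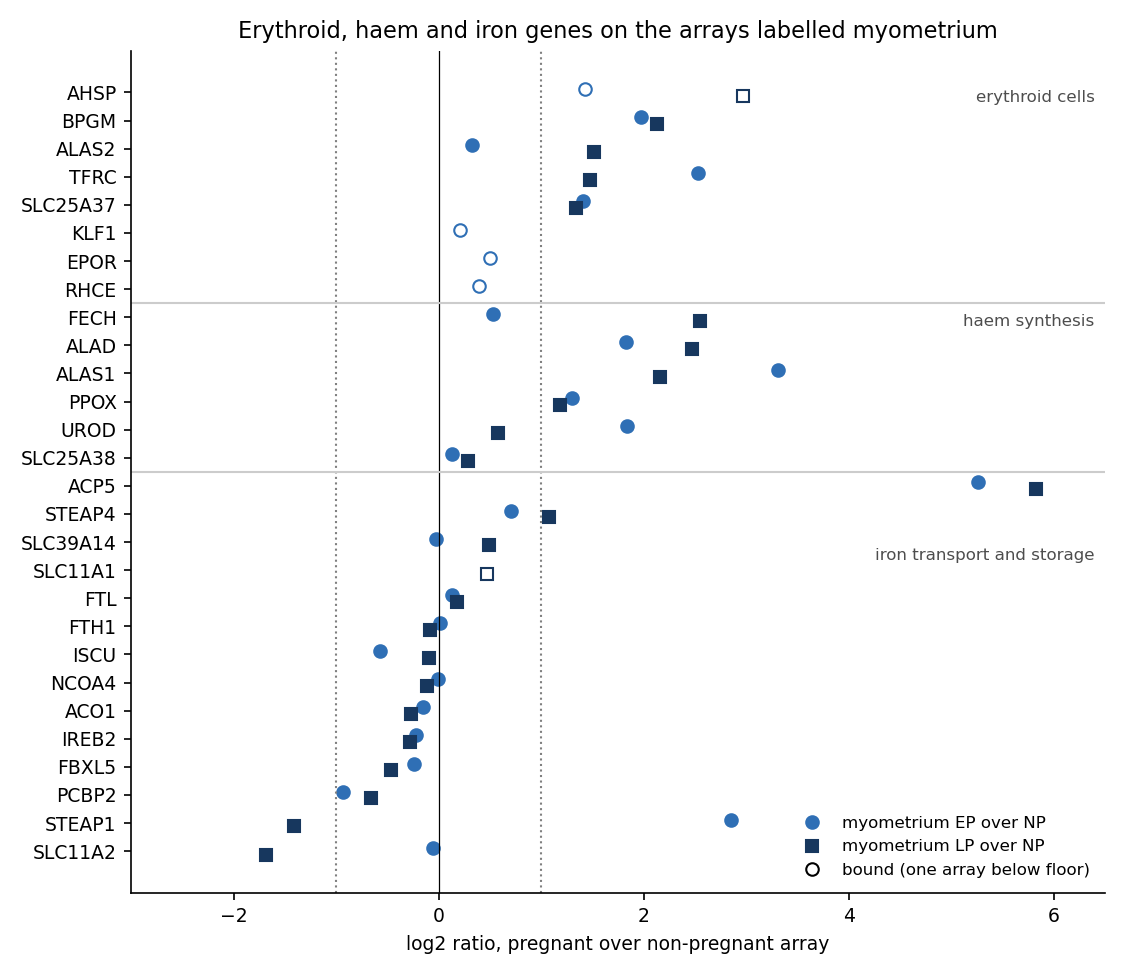
Log2 ratio of the EP (circles) and LP (squares) array over the NP array labelled myometrium, for measured genes of the erythroid, haem synthesis and iron lists; open symbols are bounds, dotted lines mark 2-fold, and each value compares 2 arrays. ACP5 lies farthest to the right at 5.26 and 5.83, and the ferritin genes FTH1 and FTL lie near 0.

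Haptoglobin was higher in later stages in both tissues. HP read 672 (NP), 3129 (EP) and 14136 (LP) on the ovary arrays. On the arrays labelled myometrium it read 13.7 (NP), 893 (EP) and 30784 (LP). The order NP, EP, LP held in each tissue, and the NP array labelled myometrium was the only array under the floor.

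In LP against EP tissue labelled myometrium HP was 34.5-fold higher, and against NP at least 377-fold higher. In EP against NP tissue it was at least 10.9-fold higher. In ovary, HP was 4.66-fold higher in EP than in NP and 4.52-fold higher in LP than in EP. The LP ovary array was 21.0-fold higher than the NP ovary array. Between tissues the direction depended on stage: ovary was at least 8.22-fold higher in the NP pair and 3.50-fold higher in the EP pair, and 2.18-fold lower in the LP pair.

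The genes on the receiving side of haptoglobin differed in their stage order. CD163, the macrophage receptor for its complex with haemoglobin, read 2938 (NP), 1380.4 (EP) and 1596 (LP) on the ovary arrays, and 943 (NP), 445 (EP) and 1193 (LP) on the arrays labelled myometrium. Macrophage markers, 14 on the array with 10 or 11 above the floor throughout, had summed signals of 16574 (NP), 10875 (EP) and 9188 (LP) in ovary. Their sums were 10361 (NP), 11617 (EP) and 13175 (LP) on the arrays labelled myometrium. CD163 is itself 1 of the 14 and is included in these sums, and the part of macrophages in its values was not tested. HMOX1, the inducible enzyme that breaks haem down, was highest on the EP array labelled myometrium, at 2886, against 592 (NP) and 487 (LP). HMOX1 was thus 4.88-fold higher in EP than in NP tissue. HMOX2, the constitutive form, read 539 (NP), 533 (EP) and 1206 (LP) there. FLVCR2, described as a haem transporter, had the stage order of HP, with 362 (NP), 506 (EP) and 569 (LP) in ovary and 174 (NP), 690 (EP) and 1245 (LP) in tissue labelled myometrium. BLVRA, which turns biliverdin into bilirubin, was lower in pregnant tissue labelled myometrium, with 803 (NP), 353 (EP) and 331 (LP). In ovary BLVRA read 649 (NP), 473 (EP) and 763 (LP). Hemopexin, HPX, a plasma protein that binds free haem, lay under the floor on all 6 arrays, with at most 12.7. Of the 5 measured clearance genes, 2 were 2-fold or more higher and 2 lower in EP than in NP tissue labelled myometrium, and 2 were higher and 1 lower in LP than in NP. Among all measured genes 9.18% were higher and 10.3% lower in EP, and 11.3% and 13.2% in LP. The clearance medians were -0.02 (EP) and 0.34 (LP).

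Other plasma proteins were read in order to place HP. Albumin, alpha-fetoprotein and transthyretin, the defining products of liver and yolk sac, lay under the floor on all 6 arrays, at 70.6 (ALB), 44.1 (AFP) and 29.1 (TTR) at most. Some acute phase genes were above the floor on the LP array labelled myometrium and on no other: the C-reactive protein gene CRP at 463, LBP, which binds bacterial lipopolysaccharide, at 632, and the protease inhibitor SERPINA1 at 215. SAA2, of the serum amyloid A family, went the other way there by its brightest probe set, with 1858 (NP), 958 (EP) and 745 (LP). Its other probe set did not, with 5.5 (NP), 87.8 (EP) and 72.1 (LP), of which the EP value alone exceeded the floor. APOA1, the main protein of high-density lipoprotein, read 5445 (NP), 6622 (EP) and 6105 (LP) in ovary, and 2783 (NP), 2567.5 (EP) and 598 (LP) on the arrays labelled myometrium. RBP4, the plasma carrier of retinol that the pregnant pig uterus also secretes, read 372 (NP), 22309 (EP) and 18751 (LP) on the arrays labelled myometrium by its brighter probe set. In ovary its probe sets differed: the brighter was above the floor in EP alone, at 568, and the other in NP and LP, at 132 and 99.9. On the arrays labelled myometrium the other probe set lay under the floor, with at most 41.9. KNG1, a kininogen gene, read 68.1 (NP), 188 (EP) and 829 (LP) in ovary, and 162 (NP), 14.6 (EP) and 15.3 (LP) on the arrays labelled myometrium. ORM1, an acute phase glycoprotein, read 136.5 in LP against 491 in NP ovary by its brightest probe set. Another ORM1 probe set went the other way, with 115 in LP ovary and a value under the floor in NP ovary. ITIH4, an acute phase protein in the pig, read 267 (NP), 843 (EP) and 687 (LP) in ovary and at most 91.3 on the arrays labelled myometrium. Of 14 measured genes of the plasma list, 4 were 2-fold or more higher in LP than in NP tissue labelled myometrium and 2 lower. The shares of all measured genes were 11.3% and 13.2%, and the list had a median log2 ratio of 0.64. Among the 4, SERPINA1, CRP and LBP were above the floor in LP alone of these 2 arrays, so their ratios could only be positive. The same held for APOC3, FGG, ITIH2, AHSG and PLG, whereas KNG1 was above it in NP alone. Above the floor on both arrays were APOA1 (-2.22), SAA2 (-1.32), ORM1 (-0.27), ITIH3 (0.73) and RBP4 (5.66). In ovary, 2 of 8 were higher and 2 lower in LP than in NP, beside 2.8% and 3.35% of all measured genes, with a median of 0.08 beside -0.06 for all genes.

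Neutrophils also store haptoglobin, and of their listed genes S100A12 had the stage order of HP in both tissues. S100A12, a calcium-binding protein of neutrophils, read 8.0 (NP), 186 (EP) and 382 (LP) in ovary, and 29.3 (NP), 96.4 (EP) and 377 (LP) on the arrays labelled myometrium. S100A9, its relative, had that order on the arrays labelled myometrium, with 116 (NP), 237.5 (EP) and 515 (LP). In ovary S100A9 read 90.7 (NP), 60.7 (EP) and 121 (LP), the EP value under the floor. S100A8, ELANE and LTF lay under the floor on all 6. GP9, a platelet gene, read 135 (NP), 128.5 (EP) and 139 (LP) in ovary and 215 (NP), 262.5 (EP) and 197 (LP) on the arrays labelled myometrium. Over the 8 platelet and neutrophil markers with a probe set, 2 to 4 lay above the floor on an array. Their summed signals were 420 (NP), 531 (EP) and 783.5 (LP) in ovary and 630 (NP), 767 (EP) and 1331 (LP) in tissue labelled myometrium. The part of these cells in the HP values was not tested.

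The genes most like HP over the 6 arrays were TMEM237 (r of 0.97), ATG4A (0.97) and FAM46C (0.96), followed by S100A12 and IGFBP2, each at 0.93. ATG4A, an autophagy protease, read 427 (NP), 539 (EP) and 672 (LP) in ovary and 179 (NP), 373 (EP) and 1330.3 (LP) on the arrays labelled myometrium. IGFBP2, which binds insulin-like growth factors, read 606 (NP) and 10938 (LP) on the arrays labelled myometrium.

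TF/PICA, like HP, was highest on the LP array of each tissue. Its signal was 5.9 (NP), 62.1 (EP) and 372 (LP) on the ovary arrays, and 62.0 (NP), 574 (EP) and 4121 (LP) on the arrays labelled myometrium. The NP array of either tissue and the EP ovary array were under the floor, so TF/PICA was measurable on 3 arrays.

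In tissue labelled myometrium TF/PICA was at least 7.03-fold higher in EP than in NP, at least 50.4-fold higher in LP than in NP and 7.18-fold higher in LP than in EP. In ovary, LP was at least 4.55-fold higher than EP or NP. With the floor at the 60th percentile this ovary bound was 1.51-fold. Ovary was at least 7.03-fold lower than tissue labelled myometrium in the EP pair and 11.1-fold lower in the LP pair.

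TF/396996 gave a different picture. It read 14.6 (NP), 33.2 (EP) and 18.5 (LP) on the ovary arrays, and 21.5 (NP), 44.7 (EP) and 86.6 (LP) on the arrays labelled myometrium. It was above the floor on the LP array labelled myometrium alone, by 1.06-fold, so no change of transferrin under that record could be measured.

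The genes most like TF/PICA were HIP1R (r of 0.97), NEU1 (0.96), NAP1L5 (0.96), S100A9 (0.95) and MGLL (0.94). NEU1, a lysosomal sialidase, read 255 (NP), 1612 (EP) and 3079 (LP) on the arrays labelled myometrium. For HBB the closest were PSAT1 (0.97), LRIG1 (0.95), FXR1 (0.94), SCD5 (0.93) and CD200 (0.92). PSAT1, an enzyme of serine synthesis, read 7272 to 8405 in ovary, and 14958 (NP), 2464 (EP) and 2464.5 (LP) on the arrays labelled myometrium.

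Among iron genes, the transferrin receptor and uteroferrin were higher in pregnant tissue labelled myometrium, and the ferritins were level there by their brightest probe sets. TFRC lay under the floor on the ovary arrays and read 223.5 (NP), 1296 (EP) and 623 (LP) on those labelled myometrium. It was 5.80-fold higher in EP and 2.79-fold higher in LP than in NP. ACP5 read 1164 (NP), 398 (EP) and 354 (LP) in ovary. On the arrays labelled myometrium it went the other way, with 559 (NP), 21477 (EP) and 31717 (LP), the pregnant arrays 38.4-fold and 56.8-fold higher. The uterine epithelium markers had summed signals of 47742 (NP), 92985 (EP) and 103358 (LP) on the same arrays, and the part of such cells in the ACP5 and TF/PICA values was not tested. STEAP1, of a metalloreductase family, read 257 (NP), 1856 (EP) and 96.8 (LP) on the arrays labelled myometrium, and so shared with HBE1 its highest value on the EP array. The iron importer SLC11A2 on those arrays read 413 (NP), 397 (EP) and 128 (LP), and its next brightest probe set 260.4 (NP), 123 (EP) and 60.4 (LP). PCBP2, an iron chaperone, read 10324 (NP), 5392 (EP) and 6524 (LP) there by its brightest probe set. Its next brightest was level, at 876 (NP), 824 (EP) and 851 (LP), and its dimmest read 352 (NP), 166 (EP) and 295 (LP). SLC11A1, the transporter of macrophage vesicles, read 151 (NP), 109 (EP) and 51.9 (LP) in ovary. FBXL5, a sensor of cell iron, was within 2-fold of NP in both tissues. The transporter SLC39A14 read 124 (NP), 90.7 (EP) and 72.0 (LP) in ovary, the LP value under the floor, and 101 (NP), 99.8 (EP) and 142.5 (LP) in tissue labelled myometrium. LTF, lactoferrin, another relative of transferrin, lay under the floor on all 6 arrays. FTH1, the heavy chain of the iron store ferritin, read 23920 to 32161 over all 6 arrays. Of 14 measured iron genes, 3 were 2-fold or more higher and 0 lower in EP than in NP tissue labelled myometrium, beside 9.18% and 10.3% of all measured genes. In LP against NP, 3 of 15 were higher and 2 lower, beside 11.3% and 13.2%. The median log2 ratios were -0.02 and -0.10. TFRC, counted as higher in both comparisons, is also on the erythroid list and was counted there too.

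**Figure D4:**
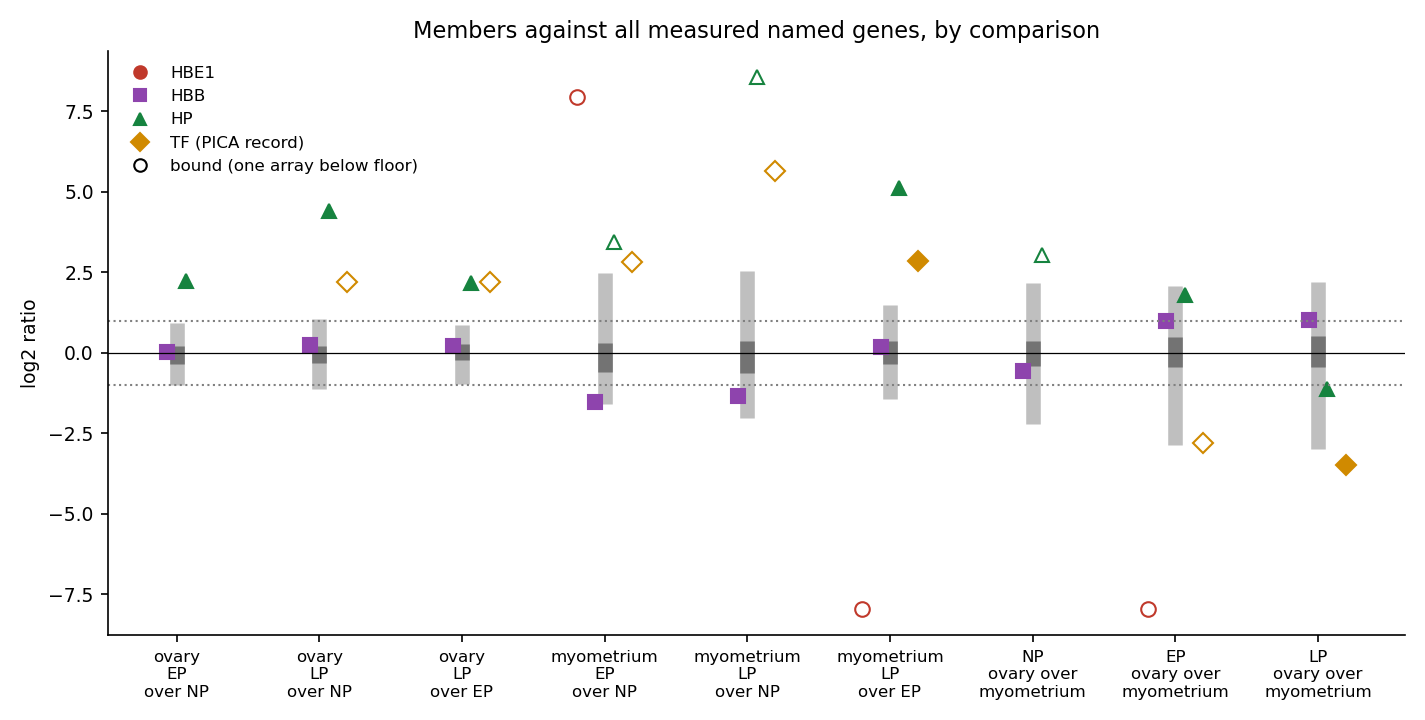
Log2 ratio of HBE1, HBB, HP and TF (the TF/PICA probe set) in the 9 comparisons; open symbols are bounds, dotted lines mark 2-fold, and bars give the middle 95% (light) and middle 50% (dark) of all measured named genes. HP lies above the light bar in each stage comparison and HBB stays within it throughout.

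Counts of the 4 genes are set beside the share of all measured genes that passed 2-fold in the same direction, and nothing is read from them because the genes were chosen with these results known. The stage comparisons of a tissue share arrays, as do the tissue pairs and the stage comparisons. In EP against NP tissue labelled myometrium, 3 were higher (9.18% of all measured genes) and 1, HBB, was lower (10.3%). In LP against NP, 2 of 3 measured were higher (11.3%) and 1 was lower (13.2%). In LP against EP, 2 were higher (5.72%) and 1, HBE1, was lower (5.56%).

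In ovary, 1 of 2 measured was higher in EP than in NP (2.01%) and 0 were lower (2.47%). In LP against NP, 2 of 3 were higher (2.8%) and 0 lower (3.35%), and in LP against EP likewise 2 of 3 were higher (1.31%) and 0 lower (2.37%). Between tissues, 1 of 2 measured in the NP pair was higher in ovary (9.11%) and 0 were lower (8.37%). In the EP pair 1 of 4 was higher in ovary (11.4%) and 2 were lower (10.4%), and in the LP pair 1 of 3 was higher (11.8%) and 2 were lower (12.2%).

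The tissue difference of the surrounding pathway genes could be tested across stages, because ovary and tissue labelled myometrium were each read 3 times. By limma with tissue and stage as terms, 3 of 42 tested pathway genes were higher in ovary and 3 lower. Among all 15882 tested probe sets, 2.84% were higher in ovary and 2.23% lower. TFRC was lower in ovary, with a mean signal of 71.9 ± 8.50 there and 714 ± 542 in tissue labelled myometrium (SD, n = 3 arrays of different stages), a log2 difference of -2.79 ± 0.51 (SE, limma adjusted p = 0.0425). STEAP4, a metalloreductase, differed by -3.70 (limma adjusted p = 0.00802) and RBP4 by -5.11 (0.0482). Of 11 alternative settings, STEAP4 stayed past the threshold in 9, TFRC in 6 and RBP4 in 3, where the limma adjusted p of RBP4 ranged from 0.0177 to 0.384. ITIH4 (2.66), ITIH3 (2.0), which encodes a hyaluronan-binding plasma protein, and NCOA4 (1.19), which delivers ferritin for breakdown, were higher in ovary, with limma adjusted p of 0.0243, 0.0428 and 0.0314. ITIH4 stayed past it in 7 of the 11 settings, and ITIH3 and NCOA4 in 6 each. Signals under the floor entered the fit at the floor, which holds for TFRC on every ovary array. Its ovary values in the fit were therefore all equal, and the TFRC means and SDs above are of signals before this step. TFRC passed the filter of 2 or more arrays above the floor only through tissue labelled myometrium. Without that filter its limma adjusted p was 0.349. By the brightest probe sets, each of the 6 called differences had 1 direction at all 3 stages. The other RBP4 probe set went the other way, with 132 (NP), 57.4 (EP) and 99.9 (LP) in ovary. It read 30.2 (NP), 11.7 (EP) and 41.9 (LP) in tissue labelled myometrium, all under the floor, as was its EP ovary value. CD163 did not pass (1.23 toward ovary, limma adjusted p = 0.1), nor did ACP5 (-3.73, 0.208) or any of the 8 haem synthesis genes. With the EP arrays left out, limma called 0 probe sets either way, 1790 having an unadjusted p below 0.05, on 1 residual degree of freedom.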

How the data were processed

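Tissue was rinsed with saline, frozen and extracted with Trizol, and 6 ug of total RNA were used per array, per the labels' protocols. The authors made the deposited intensity values with MAS5, per the submitters' processing notes. Version and settings: not given in the sources used here. The mean after trimming 2% at each end was 500.1 on every array, so a change in total RNA cannot be seen. The table held 24123 probe sets, of which 124 controls were left out; 9774 had 1 usable gene symbol.

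Signals under the floor were raised to it before log2, and a ratio with 1 array under it is a bound. Each gene was read from its brightest probe set and counted as measured if 1 or more of the arrays compared exceeded the floor. A gene above the floor on only 1 of the arrays compared can therefore differ in 1 direction only. For the tissue fit, limma 3.58.1 (R 4.3.3) was run on the 15882 probe sets that exceeded the floor on 2 arrays or more, with an intensity trend, 2 residual degrees of freedom and Benjamini-Hochberg adjustment at 0.05. Its p-values measure agreement across arrays of different stages, not across pigs. The fit was run on simulated data with 200 changed probe sets. It recovered 33% of changes of 2 log2 units and 75% of changes of 4, so a gene that did not pass may still differ. Members and lists were chosen with earlier results of these data known. No sequence or genome position is printed. Named were all probe sets of the members, preset pathway genes, those with the largest ratios in each list, the brightest cell markers and the 5 genes closest in profile; ties in r went to the gene with the wider range. Genes named from the set present on 1 array alone, ELANE, S100A8, NGB, SERPINA1 and SAA2 were chosen after their values were seen. Precision is limited by there being 1 array per group. Other steps ran in Python 3.11.15.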

Additional observations from a re-analysis of the deposited data

Results flagged for a closer look

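Pathway genes with opposite directions in the tissues, each 2-fold or more, and HBB, which passed 2-fold in 1 tissue, are given here. Other genes had opposite signs with a smaller ratio on 1 side or both. Each ratio rests on 1 array per side, and these differences were not tested. HBB in LP against NP had log2 ratios of 0.24 in ovary and -1.33 in tissue labelled myometrium, which differ by -1.57, and its EP over NP ratios were 0.02 in ovary and -1.52 in tissue labelled myometrium. ALAS2 in LP against NP had -1.38 in ovary and 1.52 in tissue labelled myometrium, which differ by 2.90. ACP5 in EP against NP had -1.55 in ovary and 5.26 in tissue labelled myometrium, which differ by 6.81. In LP against NP, ACP5 had -1.72 in ovary and 5.83 in tissue labelled myometrium, which differ by 7.55.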

How the results depend on the processing

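Of 150 recalculations of the 28 member ratios, 143 stayed on the same side of 2-fold. Among ratios past 2-fold, 0 changed direction. HBB in EP over NP ovary, near 0, went from 0.02 to -0.02 with quantile normalization. Some of the 143 could not differ, since a changed floor cannot move a ratio of 2 arrays that both exceed it. TF/396996 was not counted where both arrays lay under the floor. HBE1 in EP over NP tissue labelled myometrium ranged from 82.1-fold to 456-fold. HP in LP over NP of that tissue ranged from 125-fold to 913-fold with other floors, since bounds follow the floor. With a pseudocount of 16 and no floor, the HP ratio was 1037-fold. HBB in the LP tissue pair had a log2 ratio of 0.99 with a pseudocount of 16 or with quantile normalization. With the floor at the 60th percentile, the TF/PICA ratio in LP ovary was 0.60 over NP and over EP. For TF/396996 in place of TF/PICA, the ratio of LP over NP or EP tissue labelled myometrium was 0.084 and that of the LP tissue pair -0.084. Averaging both TF probe sets on the log2 scale gave signals of 174 (LP ovary), 217 (EP) and 597 (LP, labelled myometrium).

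In the tissue fit, the floor at the 60th percentile gave 298 probe sets higher in ovary and 179 lower, with 1 pathway gene lower. Without the filter 0 passed in either direction, among pathway genes too (2782 at an unadjusted p under 0.05). Without the stage term 715 were higher in ovary, with 6 pathway genes. Leaving out the arrays of 1 stage gave 0 to 138 higher and 0 to 260 lower (main 451 and 354), with 0 to 1 pathway genes higher and 0 to 3 lower. The 6 called pathway genes stayed past the threshold in 37 of 66 recalculations, with 0 reversed. The stage term sets the tissues side by side within a stage, and the labels give no replicate number for any other pairing.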
